A study of Mus musculus with 18 samples.

Results

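The 8 genes described here encode transcription factors known from the anterior palate or from patterning of the face: Alx1, Alx4, Msx1, Msx2, Shox2, Pax9, Six3 and Gata3. They were chosen by name, and every probe set whose platform annotation gave 1 symbol equal to one of these names was taken. This gave 16 of the 45101 probe sets on the array. Alx4 and Gata3 had 1 probe set each and the other 6 genes had several. The probe set with the highest mean over all arrays stood for its gene, so these were 8 of 18193 genes tested.

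RNA of mouse palate at embryonic day 15.5, from strain C57BL/6J, was measured on 18 Affymetrix arrays of 1 colour, with 6 arrays in each of 3 groups. Mutant posterior samples were posterior palate of embryos that were Tgfbr2 fl/fl and carried K14-Cre. Control anterior and control posterior samples were the anterior and the posterior palate of Tgfbr2 fl/fl embryos without Cre, so the floxed alleles were shared by all groups. Tgfbr2 encodes the type II receptor for TGF-beta, and the keratin 14 promoter drives Cre in epithelial cells, so the deletion was directed at the epithelium and not at the mesenchyme. Mutant anterior palate was not analysed here. The design text places mutants and controls in separate litters and gives 5 samples per group where 6 are labelled; all 6 were used. Sex was not determined, and nothing says whether a sample was 1 embryo or a pool, so the p-values cover only sample-to-sample spread, which may be technical.

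The secondary palate grows as a pair of shelves of neural crest mesenchyme covered by epithelium, and its anterior and posterior parts express different transcription factors. In the mouse, the homeodomain factors MSX1 and SHOX2 mark anterior palatal mesenchyme, where MSX1 works in a loop with BMP4 and epithelial SHH. MEOX2 and TBX22 are known from posterior palatal mesenchyme, and PAX9 is needed for the growth of the shelves and for teeth.

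RefSeq promoters (build GRCm38.p6) were at hand for 6 of the 8 genes; Alx1 and Alx4 are named only. The 250 bases before a listed transcription start are printed 5′ to 3′ for 4 of these genes. These 4 were higher in control anterior than in control posterior palate, and the bases show what stands before starts of genes that moved together. Capitals mark a match, on either strand, to one of 4 motifs. The first, TAATTA, is a core that many homeodomain proteins bind, and the second, AGATAA, is a common form of the site of GATA factors. The third, GGCGCC, is a GC-rich form of the SMAD site, and the fourth, TATAAA, is a TATA box. Matches did not overlap each other in the windows shown. The windows are chr5:37824586-37824835 on the minus strand for Msx1, chr3:66981772-66982021 on the minus strand for Shox2, chr17:85620584-85620833 on the plus strand for Six3 and chr2:9878601-9878850 on the minus strand for Gata3. The Msx1 and Shox2 windows abut the annotated gene. The Six3 and Gata3 windows lie inside theirs (chr17:85613608-85626191 and chr2:9857078-9887953), so they precede an internal start.
Msx1: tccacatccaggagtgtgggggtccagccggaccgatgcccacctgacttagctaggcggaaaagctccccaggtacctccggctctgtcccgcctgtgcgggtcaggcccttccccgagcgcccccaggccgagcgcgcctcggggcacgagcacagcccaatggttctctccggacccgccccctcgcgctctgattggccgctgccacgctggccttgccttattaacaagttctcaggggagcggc
Shox2: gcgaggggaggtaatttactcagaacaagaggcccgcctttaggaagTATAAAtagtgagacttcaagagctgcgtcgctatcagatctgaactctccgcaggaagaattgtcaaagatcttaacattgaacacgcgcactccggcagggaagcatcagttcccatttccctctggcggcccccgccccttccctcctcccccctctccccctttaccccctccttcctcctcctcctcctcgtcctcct
Six3: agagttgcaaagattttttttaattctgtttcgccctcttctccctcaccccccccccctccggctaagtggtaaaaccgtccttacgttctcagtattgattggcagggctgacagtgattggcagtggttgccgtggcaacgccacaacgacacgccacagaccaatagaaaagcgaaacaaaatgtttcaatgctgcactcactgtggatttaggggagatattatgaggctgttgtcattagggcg
Gata3: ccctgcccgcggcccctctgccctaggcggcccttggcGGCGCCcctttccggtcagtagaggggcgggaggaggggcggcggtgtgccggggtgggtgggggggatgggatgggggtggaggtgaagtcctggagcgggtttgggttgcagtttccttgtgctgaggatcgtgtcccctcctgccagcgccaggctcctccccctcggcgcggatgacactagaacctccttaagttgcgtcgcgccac
The Shox2 window held TATAAA from 203 to 198 bases before the start, and the Gata3 window held GGCGCC from 212 to 207 bases before it. No match to any of the 4 motifs was found in the Msx1 and Six3 windows, and no motif was shared by any pair of these genes. Over all 32851 promoters of the same length, TAATTA was in 4.84%, AGATAA in 9.99%, GGCGCC in 9.59% and TATAAA in 12.4%. The G and C content was 68.0% for Msx1, 55.6% for Shox2, 48.8% for Six3 and 70.0% for Gata3, against a median of 52.4% over all promoters. A match describes letters in the window and is not a shown binding site.

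Array values are on a log2 scale, and a level near the bottom of the range may be background because no detection calls were used. The median over all probe sets was between 5.74 and 5.90 on every array. Control probe sets for hybridisation parted arrays 1 to 3 from arrays 4 to 6 in each group. Their mean was 11.4 to 11.9 on mutant arrays 1 to 3 and 10.7 to 10.8 on mutant arrays 4 to 6, and 10.5 to 10.6 on control arrays 1 to 3 and 10.9 to 11.1 on control arrays 4 to 6. Control probe sets for labelling were at 7.23 to 8.91 on the mutant arrays and at 9.44 to 11.4 on the control arrays, so array processing and genotype cannot be told apart. The brightest probe set of Tgfbr2 averaged 11.01 ± 0.27 in mutant posterior and 10.46 ± 0.20 in control posterior samples (SD, n = 6 each), a difference of 0.55 (limma adjusted p = 0.00972 over all probe sets). That mutants were not lower does not check their labels, because the deleted stretch is not given and the deletion is epithelial. Genes of palatal mesenchyme were well above the array medians in all groups: the mean of 8 palatal mesenchyme genes was 10.3 to 11.4 in mutant posterior, 9.99 to 11.0 in control anterior and 10.5 to 10.8 in control posterior arrays.

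Between control anterior and control posterior palate, 5 of the 8 factors were higher in the anterior palate: Alx1, Shox2, Msx1, Six3 and Gata3. Over all genes tested, 3.82% were called, 2.12% higher in the anterior palate and 1.7% lower. A call required an adjusted p under 0.05 from limma, with the adjustment of Benjamini and Hochberg across the whole table. The median difference of the 8 factors was 1.75, against 0.017 over all genes. All 5 called factors had every control anterior array above every control posterior array, as had 3.67% of all genes. In whole tissue, more cells of a type and more RNA per cell cannot be told apart.

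**Figure D1:**
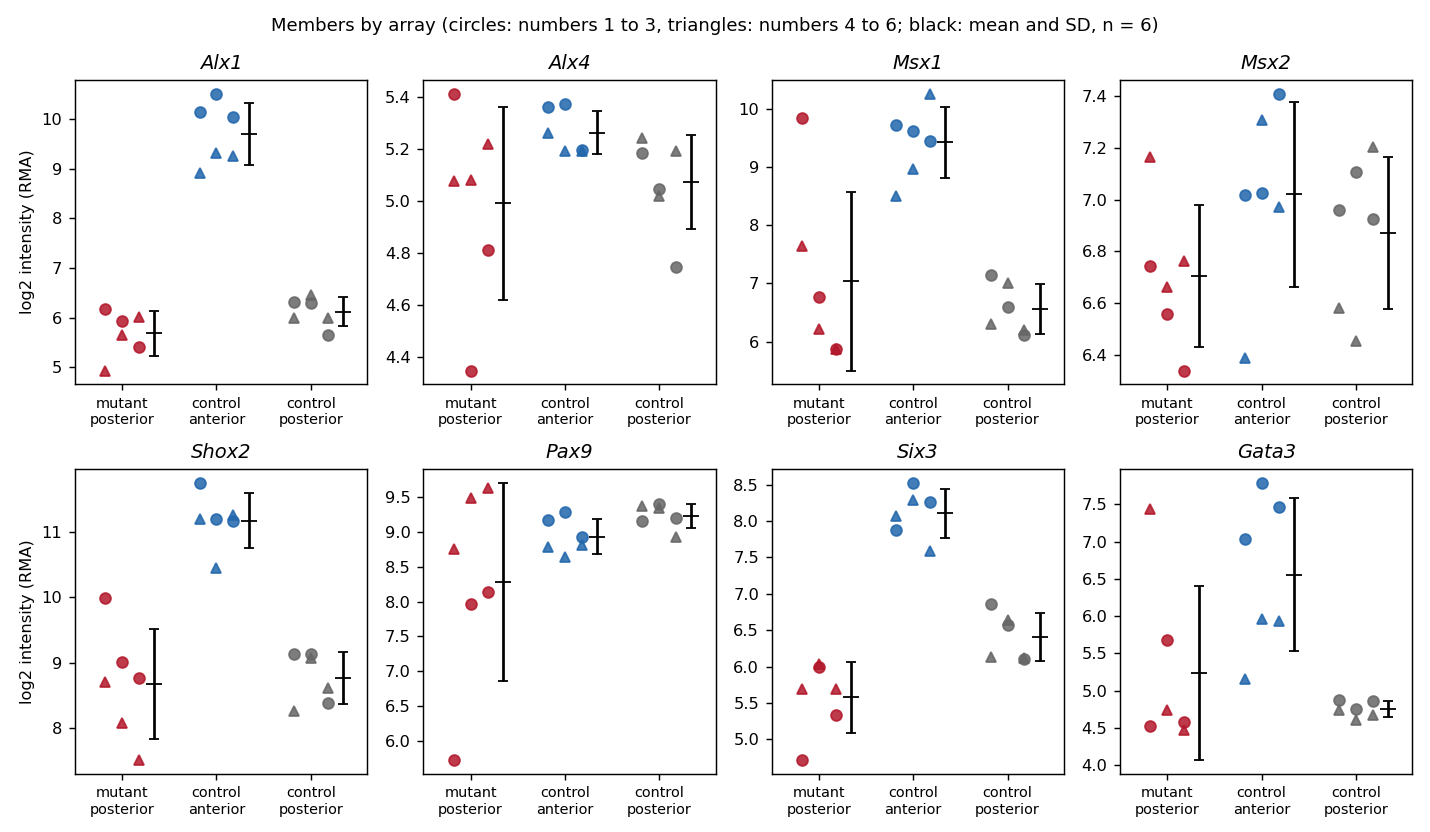
Log2 intensity of the 8 factors on every array, with mutant posterior, control anterior and control posterior samples from left to right in each panel; circles are arrays 1 to 3, triangles arrays 4 to 6, and black bars the mean and SD of 6 arrays, with an axis of its own for each gene. Alx1, Shox2 and Six3 stand apart in control anterior samples, where Alx1 lies between 8.92 and 10.5 against at most 6.45 in control posterior samples.

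ALX1 is a paired-type homeodomain factor of the frontonasal and craniofacial mesenchyme. The lowest, median and highest Alx1 levels were 8.92, 9.69 and 10.5 in control anterior samples, and 5.65, 6.15 and 6.45 in control posterior samples. The groups lay far apart. Control anterior samples averaged 9.70 ± 0.63 and control posterior samples 6.12 ± 0.30 (SD, n = 6 each), a 12-fold difference of 3.59 ± 0.26 (SE, limma adjusted p = 7.89e-07). Its second probe set gave 3.23 ± 0.29 (SE, limma adjusted p = 7.24e-06 over all probe sets). Medians of the control posterior arrays were 5.75 to 5.80. Alx1 was near them there, and its second probe set averaged 4.33, below them. Background may set these values, so the fold of 12 is uncertain.

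ALX4, its close relative, did not pass the test. Control anterior samples ranged from 5.20 to 5.37 around a median of 5.23, and control posterior samples from 4.75 to 5.24 around 5.12. The groups overlapped, the difference was 0.19 (95% interval -0.09 to 0.47) and the adjusted p was 0.458. All levels were below the array medians, where background may set the value.

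SHOX2, a homeodomain factor required for the anterior palate in the mouse, ran at 10.4, 11.2 and 11.7 (lowest, median, highest) in control anterior samples, against 8.27, 8.85 and 9.13 in control posterior samples. Every anterior array was above every posterior array. The difference was 2.40 ± 0.31 (SE), or 5.27-fold, with an adjusted p of 0.000167. The other Shox2 probe set gave 2.67 ± 0.34. In posterior palate Shox2 was still above the array medians, which reached at most 5.80 there. Rsrc1, a gene that overlaps Shox2 in the annotation, was higher in control anterior samples by 0.33 (adjusted p = 0.0155), with means of 8.71 in control anterior and 8.39 in control posterior samples.

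MSX1, a homeodomain repressor of the palate and tooth germ, had levels of 8.50, 9.53 and 10.3 (lowest, median, highest) in control anterior samples, against 6.11, 6.45 and 7.14 in control posterior samples. The groups did not overlap. The difference was 2.86 ± 0.52 (SE), or 7.27-fold, with an adjusted p of 0.00377. The second Msx1 probe set showed a smaller difference of 1.22 ± 0.27 (SE, adjusted p = 0.0219). The Msx1 call was lost with arrays 1 to 3 of every group only (2.98, adjusted p = 0.26), with arrays 4 to 6 only (2.74, adjusted p = 0.0521) and with control posterior arrays 1 to 3 only (adjusted p = 0.0944). An antisense RNA, Msx1os, overlaps Msx1 in the annotation, and no probe set is named for it. MSX2, which shares much of its homeodomain with MSX1, had a difference of 0.15 (95% interval -0.20 to 0.50, adjusted p = 0.669). Its control anterior values ran from 6.39 to 7.41 and its control posterior values from 6.45 to 7.20, so they overlapped almost fully.

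PAX9, a paired-domain factor expressed along the whole palate, did not pass the test between the regions. Control anterior samples ranged from 8.64 to 9.28 around a median of 8.87, and control posterior samples from 8.93 to 9.39 around 9.27. The difference of -0.30 had a 95% interval from -1.23 to 0.64 and an adjusted p of 0.765. This interval rests on 1 spread shared by the 3 groups. The Pax9 SD was 1.42 in mutant posterior, 0.25 in control anterior and 0.18 in control posterior samples, so mutant arrays widened the interval. Fitted without mutants, the difference was -0.12 (limma adjusted p = 0.618) in control arrays 1 to 3 and -0.47 (0.0689) in control arrays 4 to 6. All 3 Pax9 probe sets leaned the same way, by -0.15, -0.24 and -0.30.

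SIX3, a homeodomain factor known from forebrain and eye, had 7.59, 8.17 and 8.52 (lowest, median, highest) in control anterior samples, against 6.10, 6.35 and 6.86 in control posterior samples. Every anterior array again lay above every posterior array. The difference was 1.70 ± 0.21 (SE), or 3.25-fold, with an adjusted p of 1e-04, and the call was lost with arrays 1 to 3 of every group only (adjusted p = 0.0689). Only the brightest of its 3 probe sets moved: the other 2 gave 0.10 (adjusted p = 0.693) and -0.11 (adjusted p = 0.541) over all probe sets. These 2 averaged 3.79 and 5.69 in control anterior and 3.69 and 5.80 in control posterior samples, below or near the array medians. The long noncoding RNA Six3os1 overlaps Six3 in the annotation, and its own probe set was also higher in the control anterior samples, by 1.24 ± 0.26 (SE, adjusted p = 0.0104), with means of 4.91 in control anterior and 3.67 in control posterior samples. Both means were below the array medians, where background may set the value. Whether the Six3 probe set reads the gene or its partner cannot be told apart here.

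GATA3, a zinc finger factor known from sensory and epithelial development, had 5.16, 6.50 and 7.79 (lowest, median, highest) in control anterior samples, against 4.61, 4.75 and 4.88 in control posterior samples. The groups did not overlap, and the anterior arrays were widely spread. The difference was 1.81 ± 0.48 (SE), with an adjusted p of 0.041. All control posterior levels of Gata3 were below the array medians, where background may set the value, so no fold is given. The call was lost in 9 of the 18 fits that left out 1 array, namely control anterior 1, 2 or 3 and any control posterior array, with adjusted p of up to 0.0979. Over all probe sets its adjusted p was 0.0562.

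**Figure D2:**
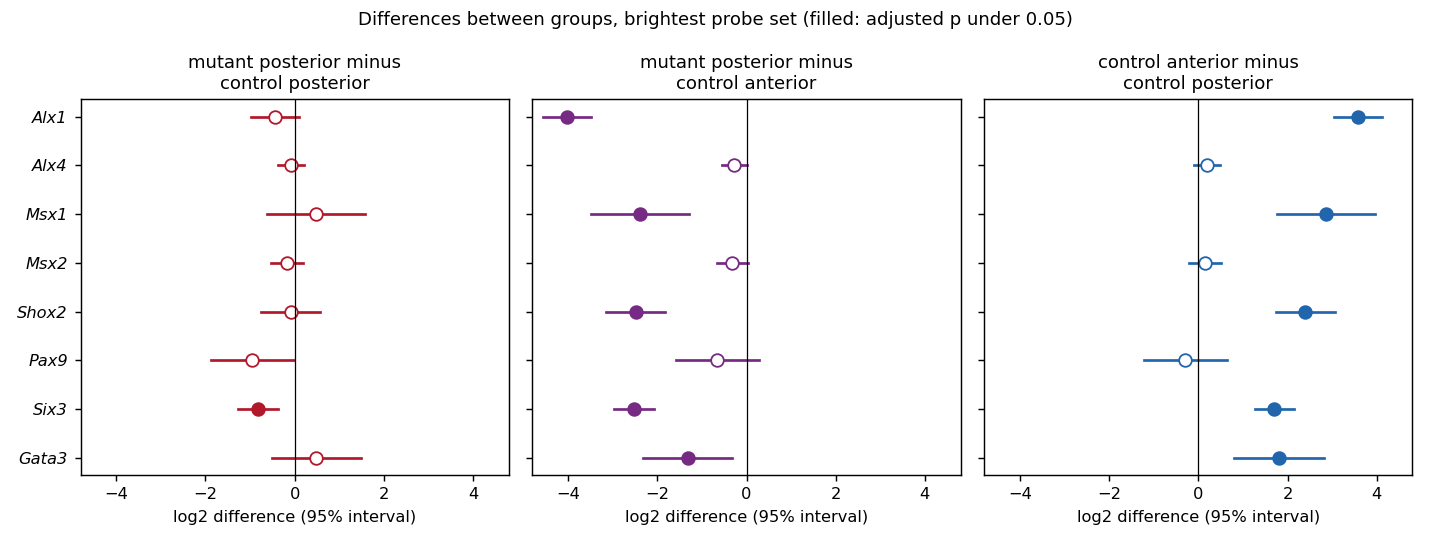
Log2 difference of each factor (horizontal axis) with its 95% interval for mutant posterior minus control posterior, mutant posterior minus control anterior, and control anterior minus control posterior; filled points have an adjusted p under 0.05 and the vertical line marks 0. Alx1, Msx1, Shox2, Six3 and Gata3 are filled in both comparisons with control anterior samples, and Six3 (-0.82) is the filled point between mutant posterior and control posterior samples.

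In all 6 pairs of same-numbered control arrays, the deviations from group means correlated above 0.1 (0.111 to 0.430). Same-numbered arrays also share an array set, and arrays of different numbers were not compared. Whether the numbers pair samples was thus not tested. With the number as a block, 3156 genes were called in place of 695, and the same 5 factors were called. Within arrays 1 to 3 and within arrays 4 to 6 of the controls, the differences were 4.15 and 3.02 for Alx1, 2.98 and 2.74 for Msx1, 2.49 and 2.31 for Shox2, and 1.71 and 1.69 for Six3. Gata3 showed 2.60 in arrays 1 to 3 and 1.01 in arrays 4 to 6. In a fit of the 12 control arrays by region and array set, these 10 differences all passed the test, where 3.69% of all genes were called in arrays 1 to 3 and 4.5% in arrays 4 to 6. The change of the difference between the sets was 1.58 ± 0.30 for Gata3 and 1.14 ± 0.29 for Alx1 (SE), and neither passed over all genes (adjusted p = 0.971 for both), as no gene did (0 genes, 797 at an unadjusted p under 0.05).

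Among control anterior samples, Gata3 differed between the array sets themselves. Arrays 1 to 3 lay from 7.03 to 7.79 and arrays 4 to 6 from 5.16 to 5.97, a difference of 1.74 (limma adjusted p = 0.034). It was 1 of 3 genes called of 18193 (0.0165%), with Emcn and Them4. Alx1 showed the same order, from 10.1 to 10.5 on arrays 1 to 3 and from 8.92 to 9.33 on arrays 4 to 6, but did not pass (adjusted p = 0.0984).

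Skeletal muscle genes, a list of 9, were all lower in the control anterior palate. Their mean level per array was 5.28 to 7.51 in control anterior samples and 9.13 to 10.3 in control posterior samples. Of 8 basal and simple epithelial genes none was called, with array means of 11.5 to 12.2 in control anterior and 11.4 to 11.8 in control posterior samples. No nasal, placodal or cartilage gene was called (0 of 9 and 0 of 6 measured). One of 4 bone genes (Ibsp, lost in 11 of 18 fits without 1 array) and 1 of 8 palatal mesenchyme genes (Twist2, lost in 4 of 18) were lower in control anterior samples. The part of tissue composition in the members' differences was not tested.

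In mutant posterior against control posterior palate, 1 of the 8 factors was called, namely Six3, which was lower in mutants. Over all genes, 13.5% were called in either direction and 5.73% were called lower in mutants. The median difference of the 8 factors was -0.13, against 0.04 over all genes. Of 2449 genes called, 57.5% were higher in mutants, and 38.6% of 2310 when arrays were centred on their medians.

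Six3 ran at 4.72, 5.70 and 6.03 (lowest, median, highest) in mutant posterior samples, against 6.10, 6.35 and 6.86 in control posterior samples. Every mutant array was below every control posterior array, as in 3.03% of all genes, though the closest values nearly met. Six3 fell by 0.82 ± 0.21 on the log2 scale (SE), with an adjusted p of 0.0157. The mutant mean of 5.58 was below the medians of the mutant arrays (5.77 to 5.90), where background may set the value, so no fold is given. The other 2 Six3 probe sets gave -0.12 and 0.03, and Six3os1 averaged 3.34 in mutant posterior and 3.67 in control posterior samples (adjusted p = 0.44). The call held in all 18 fits that left out 1 array, with adjusted p of 0.0103 to 0.0413. It was lost with the 4 array sets as a random block (adjusted p = 0.121), with mutant arrays 4 to 6 only (-0.60, adjusted p = 0.0525) and with either set of control posterior arrays alone (0.108 and 0.103).

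Pax9 had the most negative difference of the 8 factors between mutant posterior and control posterior samples, and it did not pass the test. Its mutant levels were 5.73 at the lowest, 8.45 at the median and 9.62 at the highest, against 8.93, 9.27 and 9.39 in control posterior samples. Mutant arrays thus fell on both sides: 4 were below all control posterior arrays and 2 were above them. The difference of -0.95 ± 0.44 (SE) had an unadjusted p of 0.047 and an adjusted p of 0.172. It was -1.95 (adjusted p = 0.0015) with mutant arrays 1 to 3 only, 0.06 (adjusted p = 0.877) with mutant arrays 4 to 6 only, and -0.44 (adjusted p = 0.272) without mutant array 1.

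Of the other factors, none passed the test between mutant posterior and control posterior samples. Msx1 ran from 5.86 to 9.83 in mutant samples, with a median of 6.49, against 6.11 to 7.14 in control posterior samples, so mutant values lay on both sides. The difference was 0.48 (95% interval -0.62 to 1.57, adjusted p = 0.592), and it was -0.08 without mutant array 1. Shox2 differed by -0.09 (95% interval -0.75 to 0.57), and from -0.67 to 0.49 over the alternative fits, with no call. Its mutant arrays 1 to 3 lay at 8.77 to 9.99 and its mutant arrays 4 to 6 at 7.52 to 8.71. Of these, 1 was above and 2 were below all control posterior arrays. Alx1 differed by -0.44 (-0.98 to 0.10), Alx4 by -0.08 (-0.36 to 0.20) and Msx2 by -0.17 (-0.52 to 0.19). The mutant mean of Alx1, 5.68, was below the medians of the mutant arrays, where background may set the value. Gata3 differed by 0.48 (-0.52 to 1.49), and by 0.05 without mutant array 4. That array stood at 7.43, against 4.46 to 5.68 on the other mutant arrays and 4.61 to 4.88 on control posterior arrays.

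**Figure D3:**
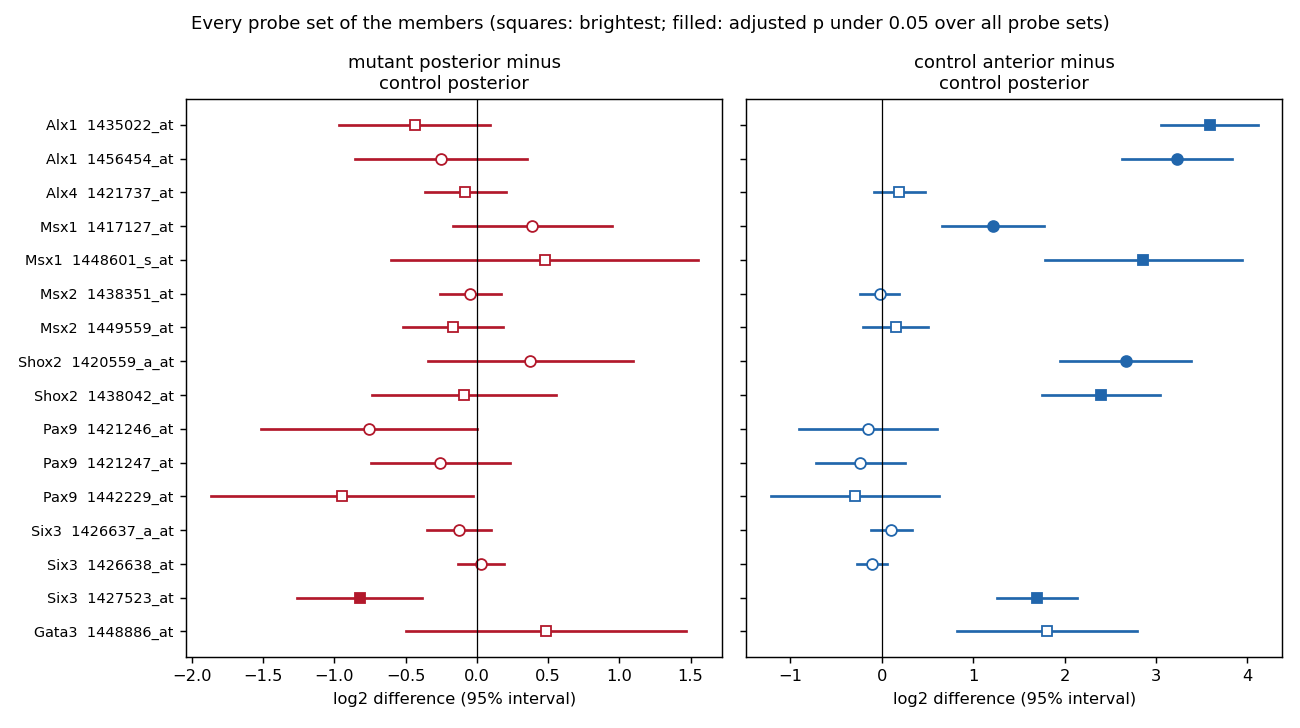
Log2 difference with its 95% interval of all 16 probe sets of the 8 factors, for mutant posterior minus control posterior and for control anterior minus control posterior, on axes of different span; squares are the brightest probe set of a gene and filled points have an adjusted p under 0.05 over all probe sets. Of 16 probe sets, 1 is filled for genotype, that of Six3, and 7 are filled for region, all above 0.

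Over single probe sets, 7 of 16 were called between control anterior and control posterior samples and 1 of 16 between mutant posterior and control posterior samples, where 1.86% and 10.7% of all 45037 probe sets were called. The region calls were both probe sets of Alx1, Msx1 and Shox2 and 1 of Six3. A second probe set of a gene shares its transcript and is no replicate.

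Mutant posterior palate was also set against control anterior palate, a comparison in which region and genotype differ together and which shares arrays with the other two. There, 5 factors were lower in the mutant posterior samples, where 27.2% of all genes were called and 13.3% were called lower. The differences were -4.02 ± 0.26 for Alx1, -2.53 ± 0.21 for Six3, -2.49 ± 0.31 for Shox2, -2.39 ± 0.52 for Msx1 and -1.32 ± 0.48 for Gata3 (log2, SE). Their limma adjusted p were 2.68e-08, 5.68e-07, 2.67e-05, 0.00295 and 0.0472 in that order. Every mutant array lay below every control anterior array for Alx1, Shox2 and Six3, as in 4.85% of all genes. The Gata3 call was lost in 13 of the 18 fits that left out 1 array, and Msx2 passed in 1 of them, without control anterior array 4 (-0.44, adjusted p = 0.043).

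The order of levels thus differed among the factors. For Six3 it was control anterior, then control posterior, then mutant posterior, with each step called. For Alx1, Shox2, Msx1 and Gata3, control anterior samples were highest and the 2 posterior groups, which overlapped, did not pass the test against each other. For Pax9, Alx4 and Msx2 no pair of groups passed the test in the fit to all arrays.

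Msx1, Pax9, Gata3, Shox2, Six3 and Alx4 had a larger SD over mutant arrays than over either control group. The median SD over all genes was also larger there, at 0.23 in mutant posterior, 0.15 in control anterior and 0.13 in control posterior samples. Gata3 was also widely spread in control anterior samples. The SD over mutant samples was 1.53 for Msx1, 1.42 for Pax9 and 1.17 for Gata3, larger than for all but 0.638%, 0.83% and 1.78% of genes, where the median gene had 0.23. The SD of Msx1, Pax9 and Gata3 was 0.61, 0.25 and 1.02 in control anterior samples, and 0.43, 0.18 and 0.10 in control posterior samples. For Gata3 in control anterior samples, 0.396% of genes had a larger SD. Mutant array 1 held the highest or lowest mutant value of 6 factors. It was highest for Msx1 (9.83), Shox2 (9.99), Alx1 (6.17) and Alx4 (5.41), and lowest for Pax9 (5.73) and Six3 (4.72). Dixon's test for 1 outlying value, run on each probe set of the factors in each group, flagged 0 of 48 sets of values.

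Several marker lists also stood apart on mutant array 1. The mean of the 8 basal and simple epithelial genes was 9.24 on mutant array 1, 11.1 to 11.99 on the other mutant arrays and 11.4 to 11.8 on control posterior arrays. Of 9 nasal and placodal genes the mean was 6.13 on mutant array 1 and 7.42 to 8.30 on the other mutant arrays, against 8.02 to 8.40 on control posterior arrays. The posterior palate mesenchyme list was at 8.46 there and at 9.12 to 10.19 on the other mutant arrays, against 9.62 to 9.91 on control posterior arrays. Mutant arrays 2, 3 and 4 (9.26, 9.12 and 9.54) were also below all control posterior arrays, and mutant arrays 5 and 6 (9.95 and 10.19) were above them. The muscle list was at 11.7 on mutant array 1, the highest of the 18 arrays. Over all mutant arrays, 0 of the 8 epithelial genes and 0 of 8 palatal mesenchyme genes were called between mutant posterior and control posterior samples. Of the 9 nasal and placodal genes, 1 was higher (Ltf, lost in 3 of 18 fits without 1 array) and 3 were lower. Of these, Otx2 gave -1.72 (adjusted p = 0.012, held in all 18 fits) and Bpifa1 gave -1.68 (adjusted p = 0.0475, lost in 15 of 18 fits). One of 9 muscle genes (Ckm), 1 of 6 cartilage genes (Col11a2) and 1 of 4 bone genes (Dmp1) were higher in mutants, with Col11a2 lost in 7 of 18 fits. With the 4 array sets as a random block the calls of Ltf, Otx2, Bpifa1, Ckm, Col11a2 and Dmp1 were all lost (adjusted p from 0.084 for Ckm to 0.258 for Bpifa1). The part of this array's composition in the members' values was not tested; without it, Six3 still was called in the genotype comparison (-0.65, adjusted p = 0.0254).

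**Figure D4:**
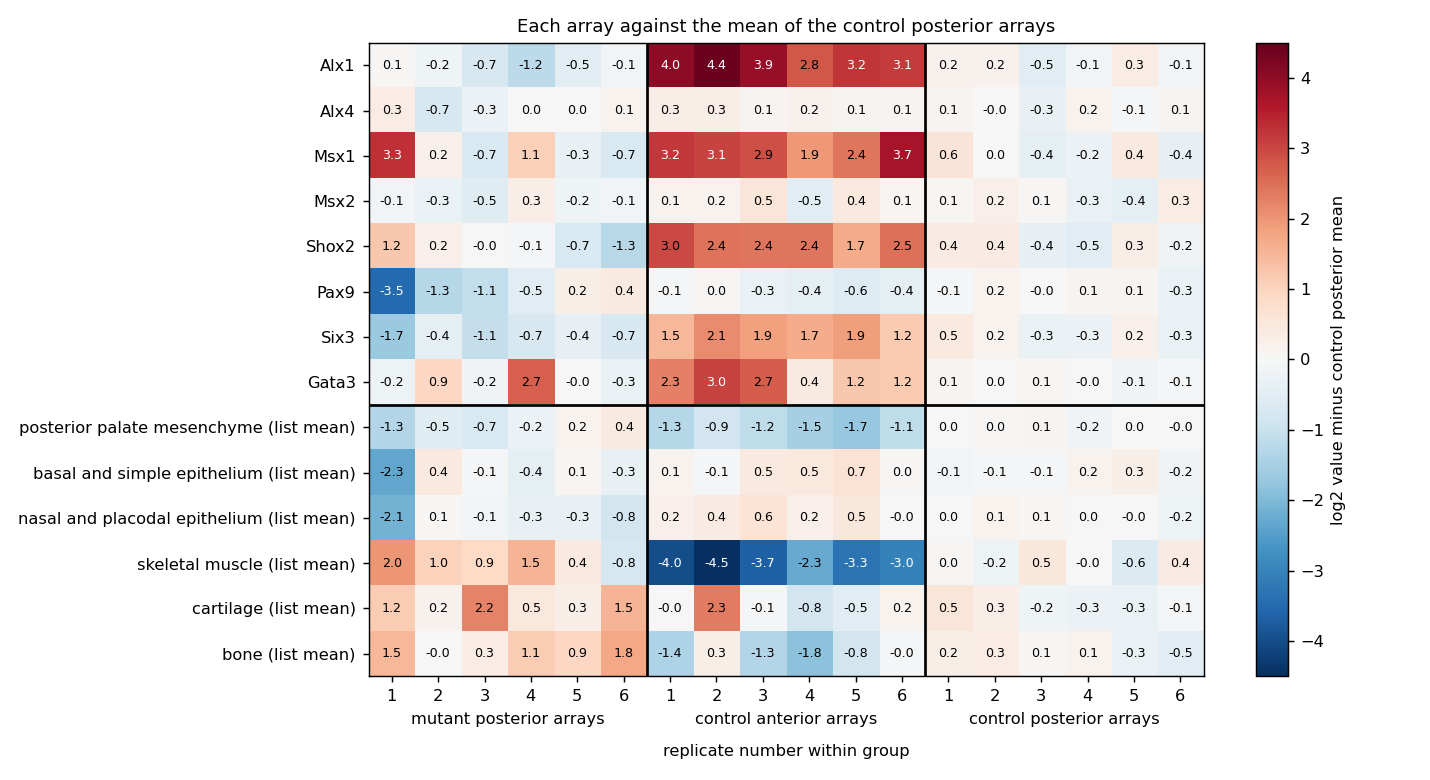
Log2 value of each factor and mean of 6 marker lists on each array (columns, replicate number within group) minus the mean of the control posterior arrays, with the mutant posterior, control anterior and control posterior arrays from left to right; colour gives sign and size. Among the mutant arrays, array 1 has the highest Msx1 (3.3) and the lowest Pax9 (-3.5) on this scale.

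In deviations from the group means, Msx1 and Shox2 moved alike over the 18 arrays (Pearson r = 0.763), and each ran opposite to Pax9 (r = -0.707 and -0.719). Without mutant array 1 these were 0.555 for Msx1 and Shox2, -0.04 for Msx1 and Pax9 and -0.448 for Shox2 and Pax9. These are descriptions, since arrays of a group share their processing.

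For each factor the genes with the most similar profile over all 18 arrays were found, with the group differences included. Cyp26b1, which breaks down retinoic acid, came first for Alx1 (r = 0.946). Ambn, the enamel matrix gene for ameloblastin, came first for Msx1 (r = 0.906), Hs3st1, a heparan sulfate sulfotransferase, for Shox2 (0.935), Foxf2, a forkhead factor of palatal mesenchyme, for Pax9 (0.952), Ccdc88c for Six3 (0.950) and Gata2, the relative of Gata3, for Gata3 (0.892). E2f3 came first for Alx4 (0.885) and Zcchc9 for Msx2 (0.733). Each of these r was picked as the highest over many genes, and how high such a value would be by chance was not tested.

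Ambn levels illustrate such a profile, with 7.63 on mutant array 1 and 3.97 to 5.37 on the other mutant arrays, 6.62 to 7.95 on control anterior arrays and 4.81 to 5.10 on control posterior arrays. In deviations from group means, Meis2, a homeodomain cofactor, was most like Pax9 (r = 0.984, and 0.956 without mutant array 1). Meis2 stood at 8.03, 9.52, 9.55, 9.99, 10.67 and 10.94 on mutant arrays 1 to 6, against 10.5 to 10.8 on control posterior arrays.

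Family members and signalling genes of the palate were followed in the same tests. Of 11 measured relatives, none was higher and 1 lower in the control anterior palate: Pax1, the close relative of Pax9, fell by 1.33 (adjusted p = 0.00667). Between mutant and control posterior samples, 2 of the 11 were lower, Six2 with a difference of -0.76 (adjusted p = 0.00331) and Six4 with -1.48 (adjusted p = 0.0324). Six2 held in all 18 fits without 1 array, and Six4 was lost in 7 of them. With mutant arrays 1 to 3 only Six4 gave -2.73 (adjusted p = 3.77e-08), and with mutant arrays 4 to 6 only -0.22 (adjusted p = 0.294). Both calls were lost with the 4 array sets as a random block (adjusted p = 0.0526 for Six2 and 0.0818 for Six4).

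Of 17 genes of the anterior signalling loop, which includes Bmp4, Shh and Ptch1, 1 was higher and 1 lower in the control anterior palate. Cyp26b1 rose by 1.35 (adjusted p = 9.96e-05), and Fgf7, a growth factor of the mesenchyme, fell by 0.86 (adjusted p = 0.0285, lost in 5 of 18 fits without 1 array). Bmp4 differed by -0.68 (adjusted p = 0.157) and Shh by 0.27 (adjusted p = 0.822). Between mutant and control posterior samples, Fgf10 rose by 0.57 (adjusted p = 0.0379, lost in 7 of 18 fits) and the BMP receptor Bmpr1a by 0.22 (adjusted p = 0.0205, lost in 2 of 18 fits), and none fell. Both calls were lost with the random block (adjusted p = 0.221 for Fgf10 and 0.126 for Bmpr1a).

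The posterior counterparts ran the other way from Alx1, Shox2 and Msx1. Of 5 posterior mesenchyme genes, 3 were lower in control anterior than in control posterior palate. Meox2 averaged 8.12 in control anterior and 11.0 in control posterior samples, and fell by 2.89 (adjusted p = 8.67e-05). Tbx22 gave -1.92 (adjusted p = 0.0489, lost in 14 of 18 fits without 1 array) and Hic1 gave -0.69 (adjusted p = 0.0173, lost in 1 of 18 fits). None of the 5 was called between mutant and control posterior samples, where Meox2 differed by -0.65 (adjusted p = 0.233) and Tbx22 by -1.21 (adjusted p = 0.139). Meox2 lay at 9.10 to 9.66 on mutant arrays 1 to 3 and at 10.7 to 11.8 on mutant arrays 4 to 6. Its control posterior arrays lay at 10.8 to 11.2. Tbx22 lay at 5.37 to 7.81 on mutant arrays 1 to 3 and at 7.68 to 9.54 on mutant arrays 4 to 6. Its control posterior arrays lay at 8.63 to 9.43. Hic1 went the other way between these mutant sets, at 8.93 to 9.44 and then 8.30 to 9.04.

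Tooth germ genes were also followed because MSX1 and PAX9 act in teeth. Of 8 measured, 1 was higher in control anterior samples (Sostdc1, a BMP inhibitor, by 0.97, adjusted p = 0.00493), 1 was lower (Dlx1, -1.05, adjusted p = 0.0488, lost in 15 of 18 fits without 1 array), and none was called between mutant and control posterior samples.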

How the data were processed

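RNA of 18 palate samples was hybridised to Affymetrix mouse arrays. The deposited values are log2 intensities made by the authors with RMA, per the submitters' processing notes (version not given in the sources used here). RMA corrects background, normalizes quantiles between arrays and summarises probe sets, so a change shared by most genes is removed. No centring, filter or floor was added. Groups and replicate numbers came from the sample titles.

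Probe sets were named from the platform annotation: of 45101, 64 were controls and were left out (13 of them with 1 symbol, 51 unlisted). Of all probe sets, 34945 others had 1 symbol, 932 had several, and 9211, the 51 controls included, were unlisted. The brightest probe set stood for each of 18193 genes. Group differences came from limma 3.58.1 (R 4.3.3, statmod 1.5.0), 2-sided, in 1 fit over 3 groups with 15 residual degrees of freedom and Benjamini-Hochberg adjustment over all genes, or over all 45037 probe sets where stated. The script was tested on simulated data. Figures used matplotlib 3.10.9 in Python 3.11.15.

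Deviations of same-numbered arrays correlated above 0.1 in 6 of 6 pairs of the control regions. Between the genotypes this held in 2 of 6 pairs (from -0.222 to 0.157). Arrays of different numbers were not compared, so pairing by number was not tested. No 2 arrays held the same values. The 8 genes, the marker lists and the tests were chosen with earlier results of these data known. Named genes from each list were up to 3 called genes with the largest change, or, with no call, the 1 gene of smallest p, with Meox2 and Tbx22 always, and for each factor the 3 with the highest Pearson r. Bmp4, Shh, Emcn and Them4 were added after their values were seen, Tgfbr2 as the targeted gene and overlapping genes by annotation. Alternatives covered the probe set, dim genes, scaling, variance model, array weights, blocks, array sets, threshold and each array left out. Array number limits the precision.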

Additional observations from a re-analysis of the deposited data

How the results depend on the processing

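Over the alternatives, Alx1 and Shox2 kept their region call in every one (33 of 33 and 34 of 34), Six3 in 32 of 33, Msx1 in 31 of 34 and Gata3 in 20 of 33. No result changed sign with a call. Fits with the replicate block, and the fit with the set as fixed factor, used only the 2 compared groups. With fewer genes or arrays some region calls of factors were lost: 2 factors were called among genes above the median level, where only Msx1, Shox2 and Pax9 were tested, and 3 with numbers 1 to 3 only, with numbers 4 to 6 only, or with control posterior numbers 1 to 3 only. Region gene counts, 695 in the main fit, were 3356 with array weights, 2151 with the 2 compared groups only, 3156 with the replicate block, 1322 with 4 sets as random block, 148 with numbers 1 to 3 only, 220 with numbers 4 to 6 only, 2195 with mutant numbers 4 to 6 only, 251 at an adjusted p under 0.01, 3118 with the set as fixed factor, and 154 or 379 with control posterior numbers 1 to 3 or 4 to 6 only. Without 1 array they ranged from 389 (without control posterior 6) to 1213 (without mutant 1), with 4 to 5 factors.

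For genotype, 1 factor and 2449 genes were called. The count of factors was 0 above the median level, where Six3 was not tested, with the replicate block, with 4 sets as random block, with numbers 1 to 3 or 4 to 6 only, with mutant numbers 4 to 6 only, with either set of control posterior arrays and at an adjusted p under 0.01. It was 2 with mutant numbers 1 to 3 only (Six3 and Pax9). Gene counts were 1572 with the 2 groups only, 890 with the replicate block, 588 with the random block, 4986 with mutant numbers 1 to 3 only, 905 at 0.01, and 261 or 1538 with control posterior numbers 1 to 3 or 4 to 6 only. Without 1 array they ranged from 1512 (without control posterior 5; 1592 without control posterior 4) to 2735, with 1 to 1 factors. Six3 had an adjusted p of 0.0788 with the replicate block, where 2 of 6 same-numbered pairs correlated above 0.1. Over all alternatives its adjusted p ranged from 0.00774 to 0.136. With that block Six4 (0.0934), Fgf10 (0.0859), Bmpr1a (0.0965), Otx2 (0.0791), Bpifa1 (0.141), Ltf (0.0732) and Ckm (0.0506) lost their genotype calls, and Six2, Col11a2 and Dmp1 held.

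For mutant posterior minus control anterior (4942 genes, 5 factors), counts were 2949 genes and 2 factors above the median level, 3178 genes with the 2 groups only, 2165 with the replicate block, 2064 with the random block and 2494 at 0.01. Without 1 array they ranged from 4130 to 5310 genes and from 4 to 6 factors. Centring on array medians changed the share of called genes that were higher in mutants to 31.4%, against 51.0% in the main fit. The causes of these shifts were not tested beyond the changed numbers of genes and arrays. Levels below the array medians, as for Alx4, may be background.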
